A study of Mus musculus with 2 samples.

Results

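The genes described here carry cells through mitosis: the cyclins and kinases that start it, the condensins that compact chromosomes, the centromere and kinetochore proteins that tie chromosomes to the spindle, the spindle checkpoint, the machinery of anaphase and the proteins of cytokinesis. A list of 47 such genes was matched by symbol to the platform annotation of an Affymetrix mouse genome-wide expression array. Of these genes, 46 were named by at least 1 probe set, out of 18193 genes on the array with a probe set of their own, and all 46 passed the signal minimum of 62.5 that 10583 genes passed. A signal is the summary of the probes of a probe set by Affymetrix's MAS5 method, on the linear scale. The minimum is its median over all probe sets, and each gene was read by its brightest probe set. Ccnb1, which encodes cyclin B1, was named by none of the probe sets used here and is not analysed.

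The samples were Treg cells, a class of CD4 T cell that restrains other immune cells. They were sorted as CD4+CD25hi cells from spleens of mice 6 to 8 weeks old, either miR-125a-deficient (the KO pool) or wild-type littermates (the WT pool). RNA of several mice of a genotype was pooled in equal amounts, in numbers not given in the sources used here, and each pool was read on 1 array. The mouse strain and the design of the deletion are also not given there, and the sort used CD25 at the cell surface, not Foxp3. With 1 pool per genotype no replicate check and no test between genotypes exist, so differences are given by size alone. In pooled bulk RNA, more dividing cells and more transcript per cell cannot be told apart.

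The deleted microRNA lies at chr17:17830817-17830840 on the plus strand of the GRCm38.p6 mouse assembly. The mature 5p form is printed from RefSeq because its absence is the only stated difference between the pools, with the seed, bases 2 to 8, in capitals.
mmu-miR-125a-5p: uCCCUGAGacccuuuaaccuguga

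Most mitotic genes are silent in resting lymphocytes and are transcribed together late in the division cycle. Their promoters often carry a CHR element, through which the DREAM and MuvB complexes repress them in resting cells and help activate them before mitosis, beside CCAAT boxes bound by the factor NF-Y. Treg cells are known to divide more in the body than most other resting CD4 T cells.

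Markers of the sorted cells and of other spleen cells were read first. Cd4 had a signal of 641 in the KO pool against 715 in the WT pool, and Il2ra, which encodes CD25, 18551 against 15390. Foxp3, the lineage factor of Treg cells, had 694 in the KO pool against 1631 in the WT pool, a log2 ratio of -1.21, so the pools differ in a defining marker that the sort did not use. Of 13 measured Treg markers (of 14), 4 were above 0 and 9 below, with a median ratio of -0.08, and by 1.2-fold or more 3 were higher and 6 lower. Beside these and the marker counts that follow, 51.0% of all genes past the minimum were above 0 and 49.0% below. By 1.2-fold or more, 20.5% of all genes were higher and 19.8% lower. Ikzf2 at 0.45 and Gpr83 at 0.34 lay on one side, and Nt5e at -1.13 and Itgae at -0.73 on the other. Of 8 marker lists of other cells, 7 had the lower summed signal in the KO pool. CD8 T and NK cells (9 of 10 markers measured) had 12326 against 17668, and 7261 against 9750 without Klrd1, the brightest. Of their 8 markers past the minimum, 6 were below 0 and 2 above, Klra7 at 0.92 and Klre1 at 0.58. B cells (9 of 10) had 2259.6 against 3910.5 (506 against 508 without Ighm, the brightest), and neutrophils (9 of 11) 174 against 316 with 0 markers past the minimum. Most of the other sums rested on 1 or 2 genes, of which Irf4, Xbp1 and Tfrc are known from T cells too. Plasma cell markers (9 of 10, mostly Irf4 and Xbp1) had 32027 in the KO pool against 32253 in the WT pool. Of the 5 plasma cell markers past the minimum, 1 was above 0 and 4 below, with Igha the lowest at 376 against 1160, a ratio of -1.58. Germinal centre B cell markers (6 of 8, mostly Basp1) had 15065 against 17489, and erythroid markers (10 of 14, mostly Tfrc) 12633 against 13367. Macrophage and dendritic cell markers (16 of 17, mostly Cst3) had 3795 against 4010.4. Platelet markers (7 of 8), the remaining list, had 3196 against 2625 (1453 against 1398 without Pf4, the brightest), with 4 above 0 and 3 below. No marker was at the lowest deposited value in both pools, while some were below the minimum, among them the globin gene Hba-a1, at 5.16 against 4.46. The B cell genes below it lay on both sides of 0. Ms4a1 had 10.1 in the KO pool against 33.7 in the WT pool, and Blk 42.5 against 68.7. Pax5 had 39.1 against 3.64 and Cd79a 25.8 against 3.68, while Fcer2a was level at 43.6 against 43.7. The part of these cells and of the Foxp3 difference in the ratios of the mitosis genes was not tested.

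The mitosis genes read slightly higher in the KO pool, nearly all on the same side. Of the 46 genes, 41 had a log2 ratio of KO over WT signal above 0 (89.1%), where 51.0% of all genes past the minimum did, and 5 had one below 0, where 49.0% of all genes did. The median ratio was 0.19, a 1.14-fold difference, against 0.01 for all genes past the minimum. At 2-fold, 0 of the 46 genes were higher and 0 lower, where 1.08% of all genes were higher and 1.18% lower. After loess scaling of the arrays these shares of all genes were 1.37% and 0.973%. At 1.2-fold, 14 of the 46 were higher (30.4%), where 20.5% of all genes were, and 1 was lower, where 19.8% of all genes were. The direction of this shift was already known from earlier work on these arrays, so these counts describe it and do not test it again. With all probe sets of a gene averaged, dim ones included, 32 of the 46 were above 0.

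The ratios ran from -0.43 for Cenpa to 0.69 for Nek2. Every ratio is on the scale of log2(signal + 16.3). Beside it stands the probe-set SD, the spread of ratios between the 2 brightest probe sets of genes of like signal on these arrays. This SD ran from 0.19 to 0.31 for these genes. It is called the error below, although it covers neither the error that probe sets share nor variation between mice. By this measure 22 of the 46 ratios were larger than their probe-set SD, 21 of them higher and 1 lower. Among all genes past the minimum, 20.9% were higher and 19.4% lower by more than theirs. Beyond 2 probe-set SDs, 3 of the 46 were higher, Nek2, Melk and Pttg1, where 6.04% of all genes were, and 1 was lower, Cenpa, where 6.17% of all genes were.

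These genes are bright on the array, so they were also set beside genes of like signal. Their mean signals ran from 364 to 7671, and 45 of the 46 were above 451, the 75th percentile over probe sets. Of the 6822 genes that bright, 52.3% had a ratio above 0, 17.8% were higher by 1.2-fold or more and 16.3% lower by as much. When all genes were split by signal into 4 groups of like size, their median ratio was -0.02 in the dimmest group and 0.03 in the brightest. The mitosis genes had medians of 0.43 (10 genes), 0.15 (16 genes) and 0.19 (20 genes) in the 3 groups that held any, in order of increasing signal.

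**Figure D1:**
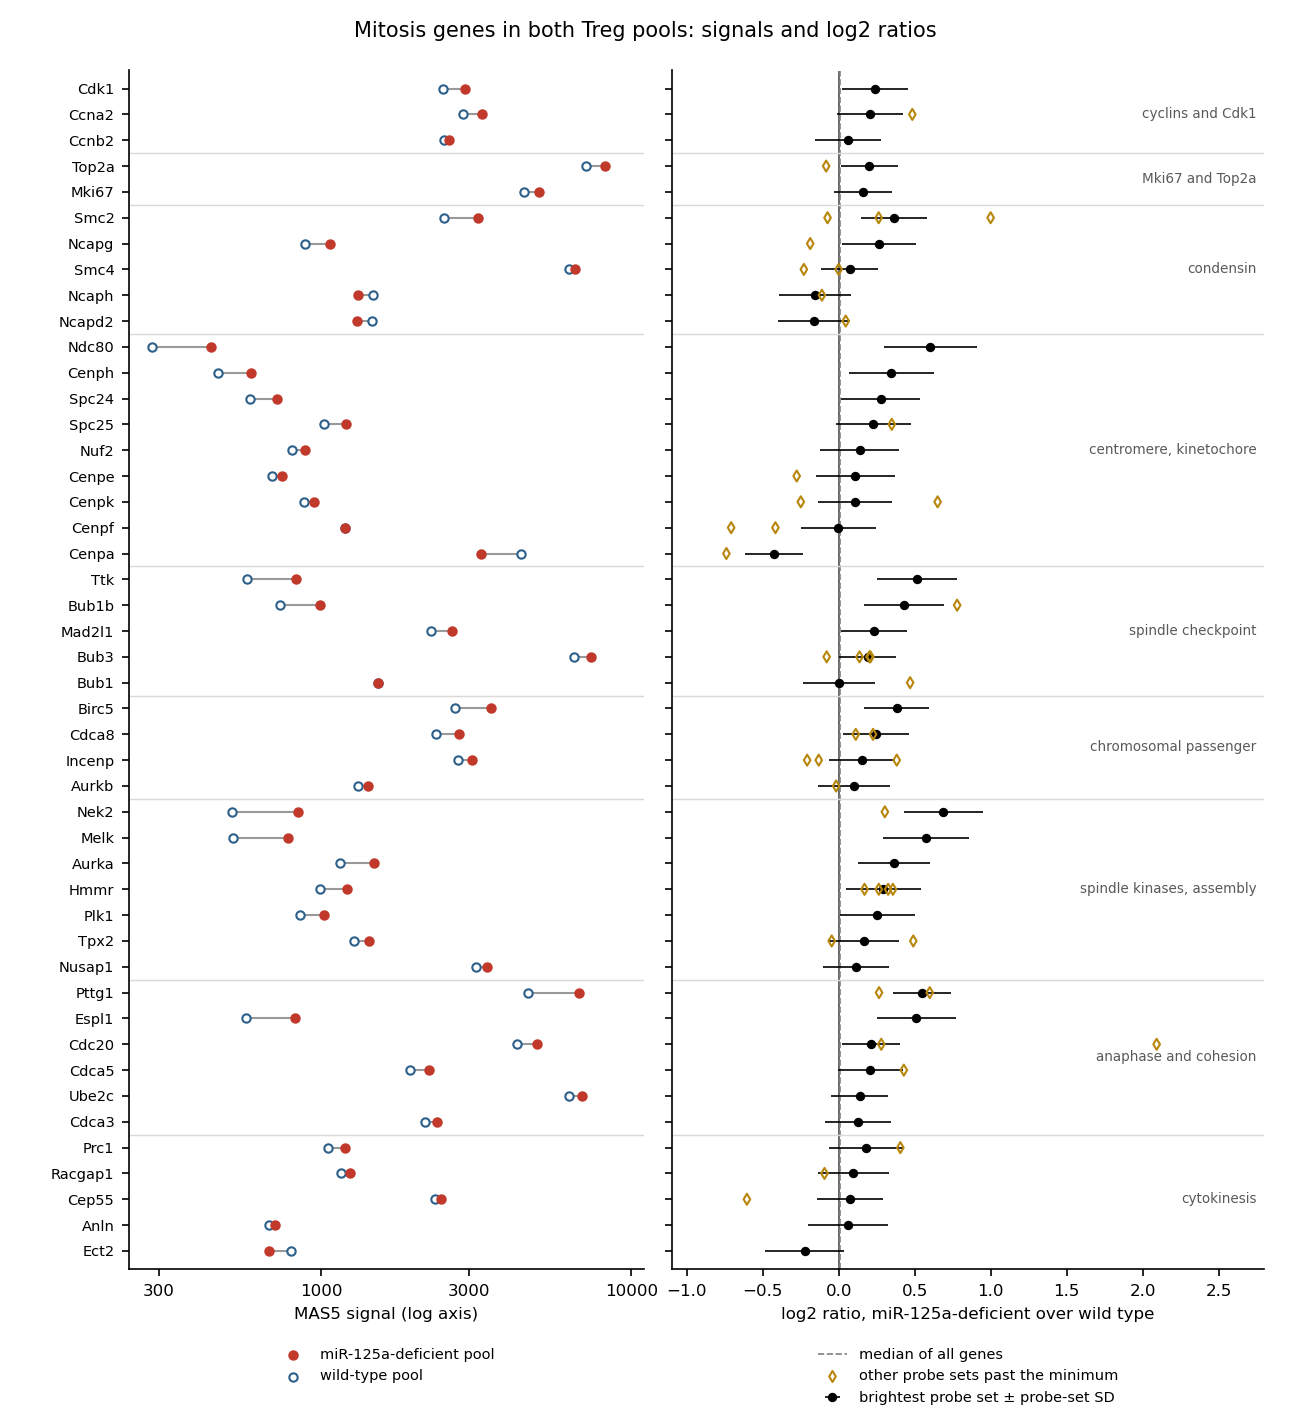
Left, MAS5 signal on a log axis of each mitosis gene in the KO pool (filled) and the WT pool (open), from its brightest probe set; levels of different genes cannot be compared. Right, log2 ratio of KO over WT with the probe-set SD as the bar, and the other probe sets past the minimum as diamonds; the brightest probe sets of 41 of 46 genes lie above 0, and the diamond of Cdc20 at 2.09 lies apart.

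**Figure D2:**
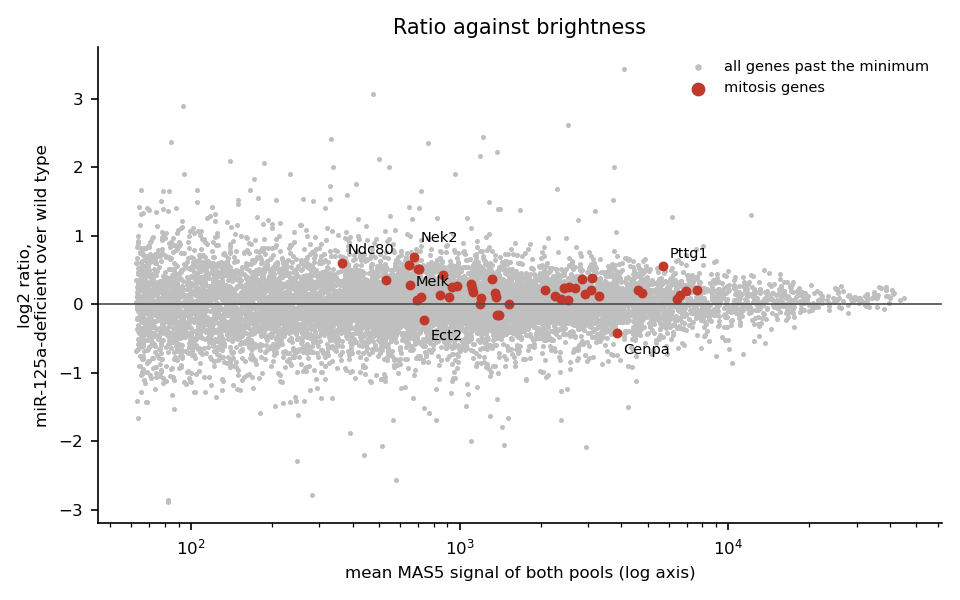
Log2 ratio of KO over WT (vertical axis) against mean MAS5 signal of both pools (log axis) for the 10583 genes past the minimum (grey) and the 46 mitosis genes (red). The mitosis genes lie inside the cloud of all genes, mostly above 0, with Nek2, Ndc80, Melk and Pttg1 among the highest and Cenpa the lowest.

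The gene list was not chosen on promoter letters, but CHR elements and CCAAT boxes are already known from the promoters of such genes. High shares of both are therefore no independent result. In the RefSeq table (GRCm38.p6), 41 of the 47 genes had a window from 250 bases before to 50 bases after the gene start, and 1 window per gene, the one listed first, was searched on both strands. A CHR element, written TTTGAA or TTCGAA, was found in 29 of the 41 windows (70.7%), against 19.4% of all 27025 windows and 13.8% of the 8676 windows of genes past the signal minimum. The letters CCAAT were found in 30 of the 41 windows (73.2%), against 37.9% of all windows. Both occurred in 25 of the 41 (61.0%), against 7.70% of all. An E2F core, written TTCCCGC or TTGGCGC, was found in 9 of the 41 (22.0%), against 6.93% of all windows and 12.8% of those of genes past the minimum. TTCGAA reads the same on both strands, and TTGGCGC can overlap CCAAT on the opposite strand.

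The CHR letters lay near the gene start, at a median position of -7, and the CCAAT letters upstream of it, at a median of -71. The ratio hardly differed with these letters: the median was 0.20 for the 29 genes with a CHR element and 0.23 for the 11 measured genes without one, and 0.20 for the 29 with CCAAT and 0.21 for the 11 without. Genes with either E2F core had a median of 0.18 (8 genes) and those with neither 0.20 (32 genes). Taken alone, TTGGCGC had a median of 0.00 (6 genes) against 0.22 without it (34 genes). For TTCCCGC it was 0.31 (2 genes) against 0.19 (38 genes). These are letter matches, which show no binding and no cause.

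The windows of the 3 mitosis genes with the highest ratios and of the 3 with the lowest among those in the table are printed so that both ends of the range can be compared. Capitals mark the searched motifs. Nek2, Ndc80 and Melk had the highest ratios. Their windows were chr1:191821223-191821522 (plus strand), chr17:71526808-71527107 (minus strand) and chr4:44300667-44300966 (plus strand). The window of Nek2 held CCAAT, that of Ndc80 a CHR element, and that of Melk none of the motifs.
Nek2: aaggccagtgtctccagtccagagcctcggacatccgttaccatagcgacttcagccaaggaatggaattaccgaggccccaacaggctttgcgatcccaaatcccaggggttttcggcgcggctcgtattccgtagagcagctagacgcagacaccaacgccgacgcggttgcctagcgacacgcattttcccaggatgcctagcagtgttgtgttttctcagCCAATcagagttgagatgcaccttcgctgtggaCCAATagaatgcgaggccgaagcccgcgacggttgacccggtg
Ndc80: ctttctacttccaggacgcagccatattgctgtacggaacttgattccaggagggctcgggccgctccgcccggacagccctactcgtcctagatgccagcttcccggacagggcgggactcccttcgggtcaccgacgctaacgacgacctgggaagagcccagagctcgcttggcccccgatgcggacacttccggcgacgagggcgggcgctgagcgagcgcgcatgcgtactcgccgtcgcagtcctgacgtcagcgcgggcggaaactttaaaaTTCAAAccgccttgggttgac
Melk: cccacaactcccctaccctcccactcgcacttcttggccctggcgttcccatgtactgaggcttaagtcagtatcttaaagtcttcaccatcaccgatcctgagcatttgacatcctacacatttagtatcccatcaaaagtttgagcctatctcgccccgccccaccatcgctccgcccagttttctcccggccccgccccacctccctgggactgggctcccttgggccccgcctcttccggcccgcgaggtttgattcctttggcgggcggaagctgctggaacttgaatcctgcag
Cenpa, Ect2 and Ncapd2 had the lowest ratios. Their windows were chr5:30666636-30666935 (plus strand), chr3:27153829-27154128 (minus strand) and chr6:125191537-125191836 (minus strand), and each held a CHR element and CCAAT. Those of Ect2 and Ncapd2 also held TTGGCGC, which in Ect2 overlaps a CCAAT box.
Cenpa: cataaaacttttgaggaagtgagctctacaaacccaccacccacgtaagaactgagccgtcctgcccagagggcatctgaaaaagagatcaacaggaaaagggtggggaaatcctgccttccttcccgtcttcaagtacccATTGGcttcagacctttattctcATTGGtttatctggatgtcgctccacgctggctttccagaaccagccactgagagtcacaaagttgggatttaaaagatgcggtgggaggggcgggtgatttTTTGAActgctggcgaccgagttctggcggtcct
Ect2: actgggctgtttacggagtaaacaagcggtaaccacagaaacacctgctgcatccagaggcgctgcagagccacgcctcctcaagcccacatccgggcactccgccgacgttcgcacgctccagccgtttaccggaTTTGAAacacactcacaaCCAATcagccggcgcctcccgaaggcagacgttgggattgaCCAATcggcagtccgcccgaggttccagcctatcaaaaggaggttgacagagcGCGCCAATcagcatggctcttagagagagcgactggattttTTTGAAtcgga
Ncapd2: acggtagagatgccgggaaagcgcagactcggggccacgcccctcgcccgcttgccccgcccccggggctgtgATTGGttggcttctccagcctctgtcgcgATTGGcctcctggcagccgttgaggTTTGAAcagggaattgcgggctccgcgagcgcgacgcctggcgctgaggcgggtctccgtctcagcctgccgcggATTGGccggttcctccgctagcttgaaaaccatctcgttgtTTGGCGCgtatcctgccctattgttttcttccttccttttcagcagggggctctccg

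Beside the counts by role that follow, 51.0% of all genes past the minimum were above 0. By 1.2-fold or more, 20.5% of all genes were higher and 19.8% lower. Entry into mitosis is driven by Cdk1 bound to A- and B-type cyclins. All 3 measured genes of this engine were higher in the KO pool, none by 1.2-fold, with a median ratio of 0.21. Cdk1, the kinase itself, had a signal of 2906 in the KO pool, against 2464 in the WT pool, a ratio of 0.24 (probe-set SD 0.22). Ccna2, which encodes cyclin A2, stood at 3297 against 2858, a ratio of 0.21 (probe-set SD 0.22), and its other probe set had 0.48. Ccnb2, which encodes cyclin B2, was level within its error, at 2587 against 2483 and 0.06 (probe-set SD 0.22).

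Mki67 and Top2a are the usual markers of cycling cells. Mki67, whose protein coats mitotic chromosomes, had signals of 5027 in the KO pool and 4495 in the WT pool, a ratio of 0.16 (probe-set SD 0.19). For Top2a, the topoisomerase that untangles sister chromatids, the signals were 8200.5 and 7142 in the same order, a ratio of 0.20 (probe-set SD 0.19). A dimmer probe set of Top2a, at 404 against 429, had -0.08. The ratio of Top2a just passed its probe-set SD and that of Mki67 did not, and with the probe sets past the minimum averaged the pair had a median of 0.11, and without probe sets of shared transcripts 0.038.

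Condensin I, the ring complex that compacts chromosomes, was split: its median was 0.07 by the brightest probe sets, but -0.05 with the probe sets of a gene averaged and -0.02 without probe sets of shared transcripts. The ATPase subunit Smc2 was higher, at 3207 in the KO pool against 2489 in the WT pool, with a ratio of 0.36 (probe-set SD 0.22). Its partner ATPase Smc4 had 6601 against 6284, a ratio of 0.07 (probe-set SD 0.19). Of the non-ATPase subunits, Ncapg had 1067 against 885 and a ratio of 0.26 (probe-set SD 0.25). The 2 others lay below 0, each by less than its error. Ncaph had 1319 in the KO pool and 1470.5 in the WT pool, a ratio of -0.16 (probe-set SD 0.24). Ncapd2 had 1302 and 1459.9, also a ratio of -0.16 (probe-set SD 0.24). The probe sets of a subunit often disagreed: the 3 others of Smc2 past the minimum ranged from -0.07 up to the one at 142 against 63.1, close to 2-fold, those of Smc4 lay at -0.23 and 0.00, that of Ncapg at -0.19 and that of Ncapd2 at 0.05. The other probe set of Ncaph, at -0.11, lay on the same side as the first.

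Among 9 centromere and kinetochore genes, 7 were above 0, with a median of 0.14, 3 of them by 1.2-fold or more, and 1 was lower by as much. The NDC80 complex, which binds microtubules at the kinetochore, has 4 subunits, and all 4 were above 0. Ndc80, the subunit that gives the complex its name, stood at 442 in the KO pool against 286 in the WT pool, 1.52-fold higher, with a ratio of 0.60 (probe-set SD 0.31). Its partner Nuf2 had 885 against 803 and 0.14 (probe-set SD 0.26). Spc24 and Spc25 anchor the complex to the inner kinetochore. Spc24 had 719 against 591 and a ratio of 0.27 (probe-set SD 0.26), and Spc25 had 1198 against 1021 and 0.23 (probe-set SD 0.25), with 0.35 at its other probe set.

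Cenpa, the histone H3 variant that marks the centromere, was the mitosis gene with the lowest ratio. Its signal was 3278 in the KO pool and 4409 in the WT pool, 1.34-fold lower, with a ratio of -0.43 (probe-set SD 0.19). A second probe set past the minimum lay on the same side, at 386 against 656 and -0.74, and a further one, at 12.3 against 4.16, was too dim to use. Cenph and Cenpk belong to the inner kinetochore network that sits on this histone. Cenph had 595 against 465, a ratio of 0.35 (probe-set SD 0.28), while Cenpk had 946 against 878, a ratio of 0.11 (probe-set SD 0.25), with its 2 other probe sets at 0.65 and -0.25. The outer kinetochore proteins Cenpe, a kinesin, and Cenpf, a large coiled-coil protein, did not stand out. Cenpe was at 747 against 693, with 0.11 (probe-set SD 0.26) and -0.28 at its other probe set. Cenpf was level at 1189 against 1191 in its brightest probe set, with a ratio of 0.00, just below 0 (probe-set SD 0.25), but its dimmer probe sets had -0.42 and -0.71.

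All 5 spindle checkpoint genes, whose products hold back anaphase until every chromosome is attached, were above 0 in their brightest probe sets, with a median of 0.23. Ttk, the kinase that starts checkpoint signalling, had 832 in the KO pool against 577 in the WT pool, 1.43-fold higher, with a ratio of 0.51 (probe-set SD 0.26). Averaged with a dim probe set at -0.61, it was at -0.048. Bub1b, which encodes the checkpoint protein BubR1, had 994 against 735, 1.35-fold higher, with a ratio of 0.43 (probe-set SD 0.26). Its second probe set was higher too, at 939 against 540.5, a ratio of 0.78. The remaining 3 differed less. Mad2l1, which encodes Mad2, a direct inhibitor of the anaphase-promoting complex, had 2648 against 2253 and a ratio of 0.23 (probe-set SD 0.22). Bub3, the adaptor that brings BubR1 and Bub1 to kinetochores, had 7438 against 6515 and 0.19 (probe-set SD 0.19), and 3 of its 4 other probe sets lay above 0. Bub1, the kinase that recruits the others, was level at 1529.8 against 1529, a ratio of 0.00 (probe-set SD 0.24), with a dimmer probe set at 0.47.

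The 4 genes of the chromosomal passenger complex, which corrects faulty attachments and later guides cytokinesis, were above 0 with a median of 0.20, or 0.12 with their probe sets averaged and 0.30 without probe sets of shared transcripts. Birc5, which encodes survivin, was the highest, at 3529.5 in the KO pool against 2709 in the WT pool, 1.30-fold higher, with a ratio of 0.38 (probe-set SD 0.22). Cdca8, which encodes borealin, had 2779 against 2343 and 0.24 (probe-set SD 0.22), and its 2 other probe sets had 0.11 and 0.22. Aurkb, the kinase of the complex, was within its error at 1414 against 1318, with 0.10 (probe-set SD 0.24) and -0.02 at its other probe set. Incenp, the scaffold, had 3069.7 against 2758 and 0.15 (probe-set SD 0.22), with its 3 others past the minimum between -0.21 and 0.38.

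Kinases and assembly factors of the spindle had a median of 0.29, with 7 of 7 above 0 and 4 at least 1.2-fold higher. With all probe sets of a gene averaged, dim ones included, the median was 0.042, and Nek2 and Aurka were below 0, at -0.066 and -0.40. Nek2, a kinase that separates centrosomes, had the highest ratio of all 46 genes: 841 in the KO pool against 516 in the WT pool, 1.61-fold higher, with 0.69 (probe-set SD 0.26). Its next probe set had 310.2 against 248, a ratio of 0.30, while 2 further probe sets below the minimum had -0.38 and -0.87. Melk, a kinase that peaks in mitosis, was 1.49-fold higher, at 779 against 518, with 0.57 (probe-set SD 0.28). Aurka, the kinase of spindle poles, stood at 1481 against 1149.6, with 0.36 (probe-set SD 0.24). Its other probe set was below the minimum and had a ratio of -1.16. Hmmr, a microtubule-binding protein of the spindle, was the most even of these genes: its brightest probe set had 1214 against 989 and 0.29 (probe-set SD 0.25), and its 4 others lay between 0.17 and 0.36. Plk1, a master kinase of mitosis, had 1022 against 856 and 0.25 (probe-set SD 0.25). Tpx2, the activator of Aurka, had 1427 against 1273, a ratio of 0.16 (probe-set SD 0.24), with 0.49 and -0.05 at its others past the minimum. Nusap1, which bundles spindle microtubules, had 3418 against 3163 and 0.11 (probe-set SD 0.22).

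All 6 genes of anaphase and cohesion were above 0, with a median of 0.21, and securin and separase had the highest ratios in their brightest probe sets. With the probe sets of a gene averaged, the median was 0.39 and Cdc20, at 0.86, was above both, at 0.47 for Pttg1 and 0.51 for Espl1. Separase is the protease that cuts cohesin, and securin holds it inactive until anaphase. Pttg1, which encodes securin, stood at 6781 in the KO pool against 4629 in the WT pool, 1.46-fold higher, with a ratio of 0.55 (probe-set SD 0.19) and 0.60 and 0.26 at its 2 other probe sets. Espl1, which encodes separase, had 822 against 573, 1.42-fold higher, with 0.51 (probe-set SD 0.26) from its only probe set. Cdc20, which switches on the anaphase-promoting complex, was at 4948 against 4278, a ratio of 0.21 (probe-set SD 0.19), with 0.28 at the next probe set. Another probe set of Cdc20 rested on 195 against 33.3 and had a ratio of 2.09. The WT signal of that probe set was below the minimum. Cdca5, which encodes sororin, a protector of cohesin, had 2228 against 1928 and 0.21 (probe-set SD 0.22), with 0.43 at its other probe set. Ube2c, the ubiquitin-conjugating enzyme of the complex, had 6923 against 6299.9 and 0.14 (probe-set SD 0.19). Cdca3, which helps remove the mitotic inhibitor Wee1, had 2364 against 2168 and 0.12 (probe-set SD 0.22).

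Cytokinesis genes differed little, with a median of 0.07, 4 of 5 above 0 and 0 at 1.2-fold in either direction. With all probe sets of a gene averaged, dim ones included, their median was -0.19, and with those past the minimum it was 0.00. Prc1, which bundles the microtubules of the central spindle, had 1195 in the KO pool against 1054 in the WT pool, a ratio of 0.18 (probe-set SD 0.25), and its other probe set had 0.40. Racgap1, part of centralspindlin, had 1239 against 1158 and 0.10 (probe-set SD 0.24), with -0.09 at its other probe set past the minimum. Ect2, the exchange factor that centralspindlin recruits to start the contractile ring, was the 1 gene of this role below 0, at 680.1 against 798 and -0.23 (probe-set SD 0.26). Anln, the scaffold anillin, was level at 709 against 679, a ratio of 0.06 (probe-set SD 0.26). Cep55, which brings the final cutting machinery to the midbody, was level at its brightest probe set, with 2439 against 2321 and 0.07 (probe-set SD 0.22), but a dim second probe set, at 56.0 against 93.6, had -0.61.

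**Figure D3:**
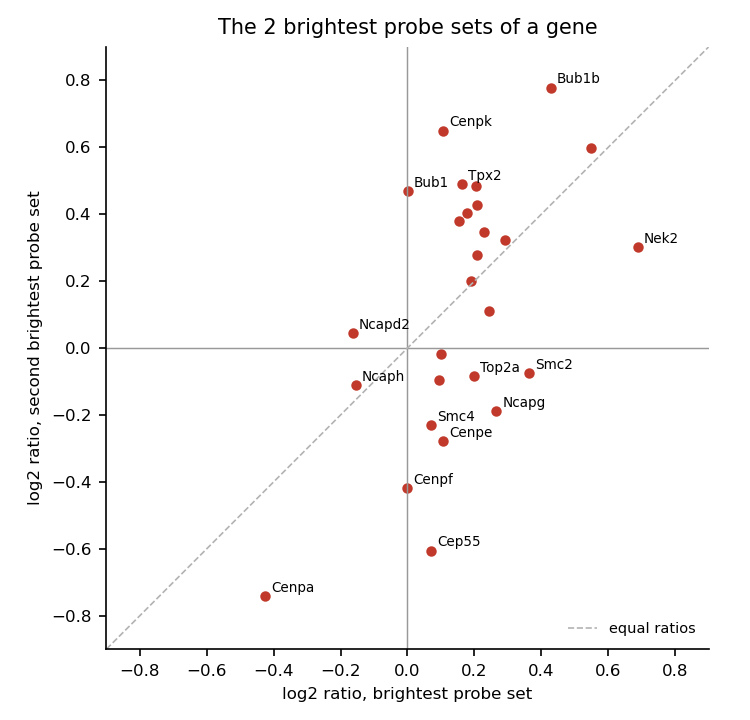
Log2 ratio of KO over WT from the brightest probe set (horizontal axis) and from the second brightest (vertical axis) of the 27 mitosis genes that have 2 or more probe sets above the minimum; the dashed line marks equal ratios. In 15 genes both lie above 0, in 3 both below and in 9 they disagree in sign.

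How far the probe sets of a gene agreed limits what can be said of single genes. The 46 genes had 105 probe sets, 90 of them past the minimum, of which 67 were above 0 and 23 below, with a median of 0.19. Of the 27 genes that have 2 or more of them above the minimum, 15 had both of their brightest above 0 (55.6%), against 31.6% of the 5030 such genes on the whole array. In 3 of the 27 (11.1%) both lay below 0, against 36.2% of all, namely Cenpa, Cenpf and Ncaph. The second brightest probe sets of the 27 had a median of 0.20 and the brightest a median of 0.18, but over all 44 unused probe sets past the minimum only 26 (59.1%) were above 0 and 18 below, with a median of 0.18. For a single gene, however, the 2 differed by a median of 0.28, more than the shift itself. The 15 probe sets below the minimum lay mostly on the other side, with 4 above 0 and 11 below and a median of -0.38. Over all 59 unused probe sets, 30 were above 0 and 29 below. Shares over all probe sets of the array are not given here. These counts of single probe sets therefore cannot be set against probe sets of like signal.

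**Figure D4:**
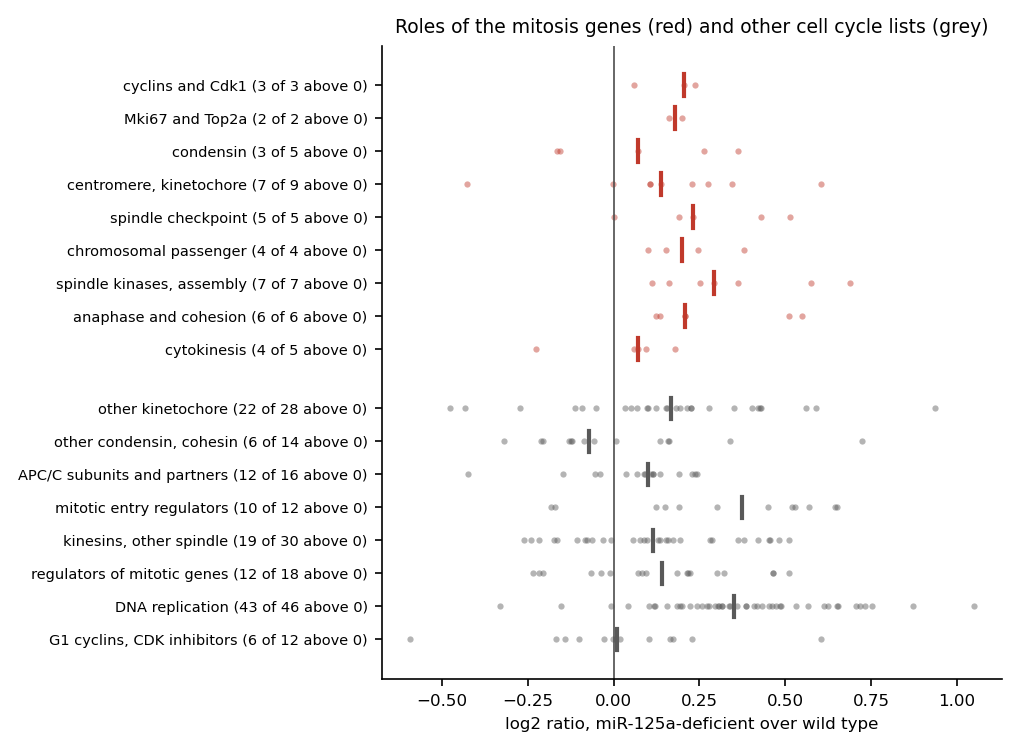
Log2 ratio of KO over WT of each gene past the minimum (points) and the median (vertical bars), for the 9 roles of the mitosis genes (red) and for 8 other lists of cell cycle genes (grey). With the brightest probe sets shown here, spindle kinases and assembly factors have the highest red median, 0.29. That rank is lost when probe sets are averaged or those of shared transcripts left out. Among the grey lists, mitotic entry regulators have the highest median, 0.38, and DNA replication lies at 0.35.

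Other genes of the same machinery, not among the 47, varied by complex. Of 28 further kinetochore genes past the minimum, 22 were above 0 (78.6%), where 51.0% of all genes were, with a median of 0.17. By 1.2-fold or more, 9 (32.1%) were higher and 3 (10.7%) lower, where 20.5% and 19.8% of all genes were. Cenpn, which reads the centromeric nucleosome, had 597 in the KO pool against 305 in the WT pool and a ratio of 0.94, with 0.28 at its other probe set, and Spdl1, a kinetochore adaptor of dynein, had 0.59. At the low end, Cenpp had -0.48 and Cenpc1, which encodes the centromere protein that links Cenpa nucleosomes to the outer kinetochore, had 797 against 1082 and a ratio of -0.43. Cenpc1 and Cenpa thus lay on the same side.

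Genes of condensin II and cohesin lay on both sides of 0. Of 14 genes, 6 were above 0 (42.9%), where 51.0% of all genes were, and the median was -0.07. The cohesin ATPases Smc3 and Smc1a had the highest ratios, 0.72 and 0.34, but the other probe set of Smc3 had -0.13 and those of Smc1a -0.18 and -0.04. Esco2, a cohesin acetyltransferase, had -0.32 and Nipbl, the cohesin loader, -0.21, with the other probe sets of Nipbl between -0.68 and 0.53.

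Of 16 subunits and partners of the anaphase-promoting complex, 12 were above 0 (75%), where 51.0% of all genes were, with a median of 0.10. By 1.2-fold or more, 0 were higher and 1 (6.25%) lower, where 20.5% and 19.8% of all genes were. Anapc5 and Ube2s both had 0.24. Cdc27 had -0.43, with its 3 other probe sets between -0.29 and 0.27, and Anapc10 -0.15 with 0.15 at its other. Regulators of mitotic entry had a higher median, 0.38, with 10 of 12 above 0, where 51.0% of all genes were, and 7 (58.3%) at least 1.2-fold higher, where 20.5% of all genes were. Gtse1, a microtubule-binding protein of dividing cells, had 329 against 203 and a ratio of 0.65, and Mastl, the kinase that restrains a phosphatase in mitosis, had 388 against 243 and 0.64, with 0.07 at its other probe set. Ensa, a substrate of Mastl, had -0.18, with 0.33 at its other probe set, and the phosphatase Cdc25b had -0.17. Of 30 kinesins and other spindle and cytokinesis genes, 19 were above 0 (63.3%), where 51.0% of all genes were, with a median of 0.11. By 1.2-fold or more, 9 (30.0%) were higher and 0 lower, where 20.5% and 19.8% of all genes were. The ratios ran from Dlgap5 at 0.51 and Plk4 at 0.48 to Kifc1 at -0.24 and Kif11 at -0.26. The other probe sets of Kif11 lay above 0, at 0.30 and 0.46, and those of Plk4 at -0.07 and 0.60.

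Genes of DNA replication, which act in the S phase before mitosis, lay further above 0 than the mitosis genes. Of 46, 43 were above 0 (93.5%), where 51.0% of all genes were, with a median of 0.35 against 0.19 for the mitosis genes. Of the replication genes, 32 (69.6%) were at least 1.2-fold higher, against 14 (30.4%) of the mitosis genes and 20.5% of all genes. Orc1, a subunit of the origin recognition complex, had 517 in the KO pool against 241 in the WT pool, a ratio of 1.05, and its other probe set had 1.02. Tyms, which makes thymidylate, had 0.87 (probe-set SD 0.37) from dim signals of 123 against 59.7, with the WT signal below the minimum. The lowest were Ccne2, which encodes cyclin E2, at -0.33 and the primase subunit Prim2 at -0.15. Whether the difference between the 2 groups of genes exceeds the variation between mice was not tested.

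**Figure D5:**
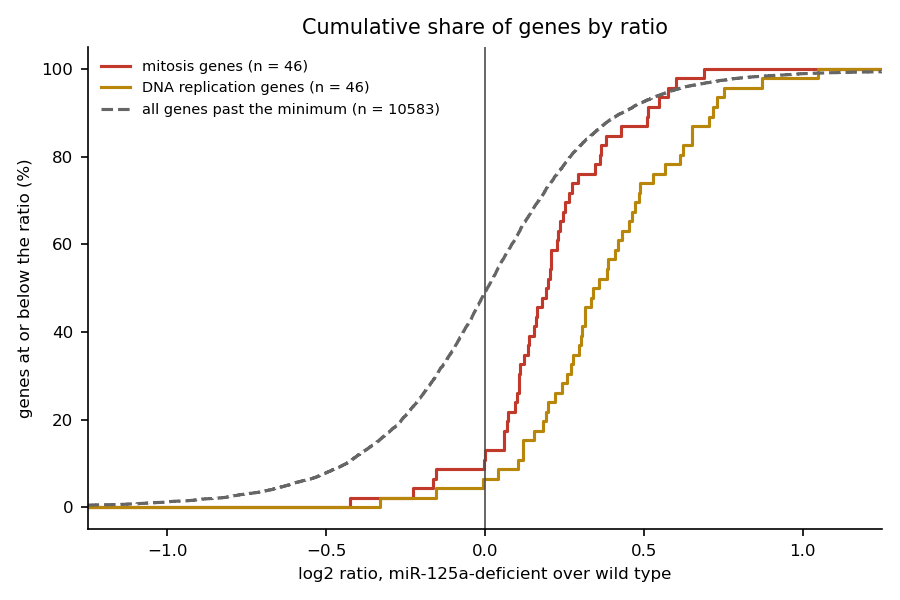
Share of genes (vertical axis, %) at or below each log2 ratio of KO over WT (horizontal axis) for 46 mitosis genes, 46 DNA replication genes and all 10583 genes past the minimum. The curve of the mitosis genes lies between that of all genes and that of the replication genes over most of the range, with medians of 0.19, 0.01 and 0.35 for mitosis, all and replication genes.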

How the data were processed

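Total RNA (6 ug) of each pool was labelled and hybridised to 1 array, so 2 arrays were analysed. The authors deposited log2 values of 45101 probe sets, made with MAS5 per the submitters' processing notes, with no version. Both arrays had a 2% trimmed mean of 500.0 on the linear scale. The lowest value, 0 on the log2 scale, was held by 473 probe sets of the miR-125a-deficient array and 552 of the wild-type array, none of them a probe set of the genes described. Detection calls were not used here, and MAS5 ratios vary widely at low signal. The 34945 probe sets with 1 gene symbol in the platform annotation were used. The 932 with several symbols, the 64 controls and 9160 others were left out.

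Each gene was represented by its brightest probe set, averaged over both arrays. A ratio is the KO minus the WT value of log2(signal + 16.3), where 16.3 is the 25th percentile of all signals, and the minimum of 62.5 is the median of mean signals. The probe-set SD came from 5030 genes, in 10 groups by signal, from the root mean square difference between the ratios of 2 probe sets, scaled to 1 probe set. It covers neither the error that probe sets share nor variation between mice. The steps were tested on simulated data in which genes were shifted far more than the mitosis genes were here. Recovery of shifts as small as these was not tested. Python 3.11.15, pandas 2.3.3, NumPy 2.4.6, SciPy 1.17.1 and statsmodels 0.14.6 were used.

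The genes, roles, lists and thresholds were chosen with earlier results of these data known. The genes named were all 47 of the list, up to 2 highest and 2 lowest of each other list, and Foxp3, Cd4 and Il2ra. Ighm, Igha, Ms4a1, Blk, Pax5, Cd79a, Fcer2a, Klrd1, Klra7, Klre1, Hba-a1, Ikzf2, Gpr83, Nt5e, Itgae, Irf4, Xbp1, Basp1, Tfrc, Cst3 and Pf4 were singled out further after their values were seen. The 10 alternatives were 3 scalings (equal medians, quantile normalization, loess, span 0.3), a pseudocount of 1 or one equal to the median, no minimum and a minimum at the 75th percentile, 2 ways of averaging probe sets, and leaving out probe sets whose names end in _s_at, _x_at or _a_at, which can match several transcripts.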

Additional observations from a re-analysis of the deposited data

Results flagged for a closer look

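One probe set of Cdc20 outside the gene values stood apart. It had 195 in the KO pool against 33.3 in the WT pool, a log2 ratio of 2.09, where the 2 brighter probe sets of Cdc20 had 0.21 and 0.28. It was picked out because it is a second readout of a gene that was not used for the gene's value, it passed the signal minimum and it was at least 2-fold higher in the KO pool. Its name ends in _x_at, which marks probes that can match transcripts of other genes. The brightest probe set of Cdc20, used for the gene's value, has the same ending, so the ending does not set this one apart.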

How the results depend on the processing

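Under all 10 alternatives the median of the mitosis genes stayed above 0, between 0.14 and 0.23. The scalings moved the median of all genes by less than 0.1, to at most 0.05, and 39 or 40 of the 46 mitosis genes stayed above that median. The count above 0 was lowest with the mean over all probe sets, dim ones included, at 32 of 46, where 49.3% of all genes were above 0. The count at least 1.2-fold lower was 3 with the mean over probe sets past the minimum and 3 with the mean over all probe sets, in place of 1. With the mean over all probe sets the median of the spindle kinases and assembly factors was 0.042 in place of 0.29 and that of the cytokinesis genes -0.19 in place of 0.07. In that setting Aurka turned to -0.40, Ttk to -0.048 and Nek2 to -0.066; this setting differs for them from the mean over probe sets past the minimum, where they had 0.36, 0.51 and 0.50, only by probe sets below it. With the probe sets of shared transcripts left out, Top2a was at -0.08, Cenpa at -0.74, Pttg1 at 0.26 and Nek2 at 0.30, and 37 genes were left. The shares of all genes at least 2-fold higher and lower, 1.08% and 1.18%, were 0.548% and 0.539% with the median as pseudocount, 4.44% and 3.18% with no minimum, and 0.513% and 0.689% with the minimum at the 75th percentile. Across all settings 31 genes stayed above 0, 4 below, and 11 had values on both sides. No paired analysis was possible because each genotype has 1 array. With 1 array per pool, precision is limited by the number of arrays, and signals near the minimum set the least certain ratios.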

Other observations

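Factors that control mitotic genes, and the brakes and drivers of the preceding G1 phase, were measured on the same arrays. Of 18 regulators of mitotic genes past the minimum, 12 were above 0 (66.7%), where 51.0% of all genes were, with a median log2 ratio of 0.14. By 1.2-fold or more 5 (27.8%) were higher and 0 lower, where 20.5% and 19.8% of all genes were. Tfdp1, the partner of E2F factors, had 4428 in the KO pool against 3099.6 in the WT pool, a ratio of 0.51. E2f4, a repressor of the E2F family, had 0.46 from dim signals of 173 against 121. At the low end, Lin54, the subunit of MuvB that binds the CHR element, had -0.24, with 0.13 at its other probe set, and Rbl2, which encodes the repressor p130 of resting cells, had 997 against 1162 and -0.22, with -0.38 at its other.

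Of 12 G1 cyclins, their kinases and kinase inhibitors past the minimum, 6 were above 0 (50%), where 51.0% of all genes were, with a median of 0.01. Cdkn1b, which encodes the inhibitor p27 that holds T cells in rest, was the lowest, at 2217 in the KO pool against 3348 in the WT pool, a ratio of -0.59 (probe-set SD 0.22), with -0.82 at its other probe set. Cdk6 had -0.17, with -0.20 and -0.19 at its others. Ccnd1, which encodes cyclin D1, was the highest at 0.60, from dim signals of 165 against 103, and Cdk4 had 0.23.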
